A study of Mus musculus with 6 samples.

Results

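Replication-dependent histone genes were followed in MA-10 cells, a mouse Leydig tumour cell line, after knockdown of the transcription factors MEF2A and MEF2D. Members were all probe sets of the annotated expression table whose gene symbol begins with Hist1h, Hist2h, Hist3h or Hist4h, and the letters after it gave the class, H1, H2A, H2B, H3 or H4. There were 65 such probe sets for 44 gene symbols, out of 25465 named probe sets for 22088 symbols. They comprised 5 probe sets for H1, 20 for H2A, 15 for H2B, 13 for H3 and 12 for H4.

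The tested cells had received siRNA against MEF2A and MEF2D together (siRNA MEF2, 3 arrays) and the control cells a scrambled siRNA (siRNA Ctrl, 3 arrays), and total RNA was taken after 48 h from both. All cells were of the same line, grown in the same medium with horse serum, and each RNA was biotin-labelled and read on its own Affymetrix array. Samples of a group carry numbers, but no label calls them separate cultures, and the p-values therefore reflect only how much these samples vary, which could be technical variation. A level below is a log2 value after RMA (robust multi-array average) normalization, and a difference is siRNA MEF2 minus siRNA Ctrl on that scale. A probe set was called where limma's moderated test gave a Benjamini-Hochberg adjusted p under 0.05 over all 25465 named probe sets.

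The knockdown was seen in both targeted genes. Mef2a had levels of 9.80, 10.12 and 10.10 on the siRNA MEF2 arrays, against 10.80, 10.80 and 10.78 on the siRNA Ctrl arrays (limma, adjusted p = 0.000164), and Mef2d 10.60, 10.84 and 10.92 against 11.22, 11.31 and 11.22 (limma, adjusted p = 0.0029). Of the Leydig cell markers, Cyp11a1, Nr5a1, Lhcgr and Hsd3b6 averaged 11.88 to 12.16 over the 6 arrays, Cyp17a1 11.18 and Star 9.16. Hsd3b1 lay near the negative controls at 7.57, and Insl3 was not analysed here. Array medians over the named probe sets were 7.88 to 7.90 for siRNA MEF2 and 7.84 to 7.86 for siRNA Ctrl, and those of the negative control probe sets 7.16 to 7.53 and 7.28 to 7.35.

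Replication-dependent histone genes supply the histones that package newly copied DNA. H2A, H2B, H3 and H4 form the core of the nucleosome and H1 binds the linker DNA between cores. The genes lie in clusters, mostly without introns, and many encode the same protein. Their mRNAs are made in S phase, when CDK2 with cyclin E phosphorylates NPAT at the histone genes, and they end in a stem-loop bound by SLBP in place of a poly(A) tail. Whole-transcript labelling starts cDNA from random primers, so such mRNAs are labelled as well.

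The promoters show which elements these genes share and where the classes differ. RefSeq (GRCm38.p6) gave a promoter, 250 bases before to 50 after the start, for 38 of the 44 genes; for 6 none was used here. Shown are 160 bases, 150 before to 10 after the start, of the most changed genes of H2A, H4, H2B and H1, of Hist1h1c, an H1 gene that did not pass the test, and of the single gene of the Hist4 cluster. Capitals mark CCAAT, the TATA box TATAAA, the octamer ATTTGCAT and the core GGTCCG of the H4 promoter element, each on either strand.
Hist1h2ab: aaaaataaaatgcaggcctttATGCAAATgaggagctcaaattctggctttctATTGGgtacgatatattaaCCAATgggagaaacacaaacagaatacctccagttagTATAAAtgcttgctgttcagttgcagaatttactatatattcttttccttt
Hist1h4c: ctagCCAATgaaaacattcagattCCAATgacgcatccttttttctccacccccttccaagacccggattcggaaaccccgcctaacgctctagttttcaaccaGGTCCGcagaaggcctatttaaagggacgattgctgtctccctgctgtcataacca
Hist2h2bb: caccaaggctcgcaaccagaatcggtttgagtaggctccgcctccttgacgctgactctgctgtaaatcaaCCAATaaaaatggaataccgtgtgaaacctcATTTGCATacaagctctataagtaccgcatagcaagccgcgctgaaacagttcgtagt
Hist1h1b: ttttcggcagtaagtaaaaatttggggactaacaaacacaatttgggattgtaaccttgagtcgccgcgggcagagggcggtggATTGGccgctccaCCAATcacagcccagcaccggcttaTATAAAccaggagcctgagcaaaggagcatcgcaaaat
Hist1h1c: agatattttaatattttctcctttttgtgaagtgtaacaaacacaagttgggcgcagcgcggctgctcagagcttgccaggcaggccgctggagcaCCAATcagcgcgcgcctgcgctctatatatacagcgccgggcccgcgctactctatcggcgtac
Hist4h4: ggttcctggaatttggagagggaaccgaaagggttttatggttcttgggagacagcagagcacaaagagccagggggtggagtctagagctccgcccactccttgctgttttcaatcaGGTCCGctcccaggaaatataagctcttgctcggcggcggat
In this order the windows lie at chr13:23750938-23751097 (plus strand), chr13:23698449-23698608 (minus), chr3:96269550-96269709 (plus), chr13:21780616-21780775 (minus), chr13:23738657-23738816 (plus) and chr6:136804422-136804581 (minus).

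The octamer, which the POU factor OCT1 binds, stood in 5 of 9 promoters of H2B genes and 5 of 11 of H2A genes and in none of the 18 of other classes, against 1.74% of all 32851 promoters. In the H2A genes all 5 read on the minus strand, with the first base at positions -119 to -130 from the start (Hist1h2aa, Hist1h2ab, Hist1h2ac, Hist1h2ae and Hist3h2a), and in the H2B genes all read on the plus strand. GGTCCG, from the site that HINFP reads in H4 promoters, stood in 8 of 8 promoters of H4 genes, 5 of them at -46 or -47, and in 8.25% of all promoters. CCAAT, the site of the NF-Y complex, stood in every promoter of H1, H2A, H2B and H3 genes but in 2 of 8 of H4, with 37.4% of all promoters holding it. TATAAA stood in 21 of 38, against 13.6% of all promoters. The 10-base MEF2 consensus was found in 2 of the 38, those of Hist1h2aa and Hist3h2ba, or 5.26% against 3.19% of all promoters, and neither gene was called. These matches describe the letters of the windows only.

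Histone levels were lower in siRNA MEF2 cells over all 5 classes, and no histone probe set was called higher. Of the 65 probe sets 31 were called lower, 47.7%, against 11.0% of all named probe sets. None was called higher, against 8.44% of all named probe sets. On 54 of the 65 all siRNA MEF2 arrays lay below all siRNA Ctrl arrays, against 17.5% of all named probe sets. The median difference was -0.17, from -0.77 to 0.07, where that of all named probe sets was 0.04. Centring each array on its median turned the split of all named probe sets to 987 higher and 3819 lower, where it was 2148 higher and 2800 lower. That scaling moved all differences down, so the 0 histone probe sets called higher under it are no further evidence.

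Each of the siRNA MEF2 arrays carried the difference. Set against the mean of the siRNA Ctrl arrays, the median histone probe set stood at -0.14, -0.17 and -0.21 on the siRNA MEF2 arrays, and 59, 63 and 64 of the 65 probe sets were below that mean. The first siRNA MEF2 array lay closest to the controls and was also the one with the lowest Mef2a and Mef2d. A link between the depth of the knockdown and the histone difference was not tested. In bulk RNA, fewer cells in S phase and less histone RNA per cell cannot be told apart.

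By class, H4 had 9 of 12 probe sets called lower, H1 3 of 5, H2B 7 of 15, H2A 8 of 20 and H3 4 of 13. The median differences were -0.18 for H4, -0.28 for H1, -0.17 for H2B, -0.16 for H2A and -0.16 for H3. By cluster, 22 of 48 probe sets of the Hist1 symbols (chromosome 13), 6 of 13 of Hist2 (chromosome 3), 2 of 3 of Hist3 (chromosome 11) and the 1 of Hist4 (chromosome 6) were called lower. Probe sets are not independent genes here, since several share an accession or gave nearly the same values on every array, so these counts are not counts of genes. With only the brightest probe set of each gene symbol tested, 25 of 44 histone genes were called lower, against 11.7% of all named ones. Probe sequences were not used here, and sharing of probes was not tested.

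**Figure D1:**
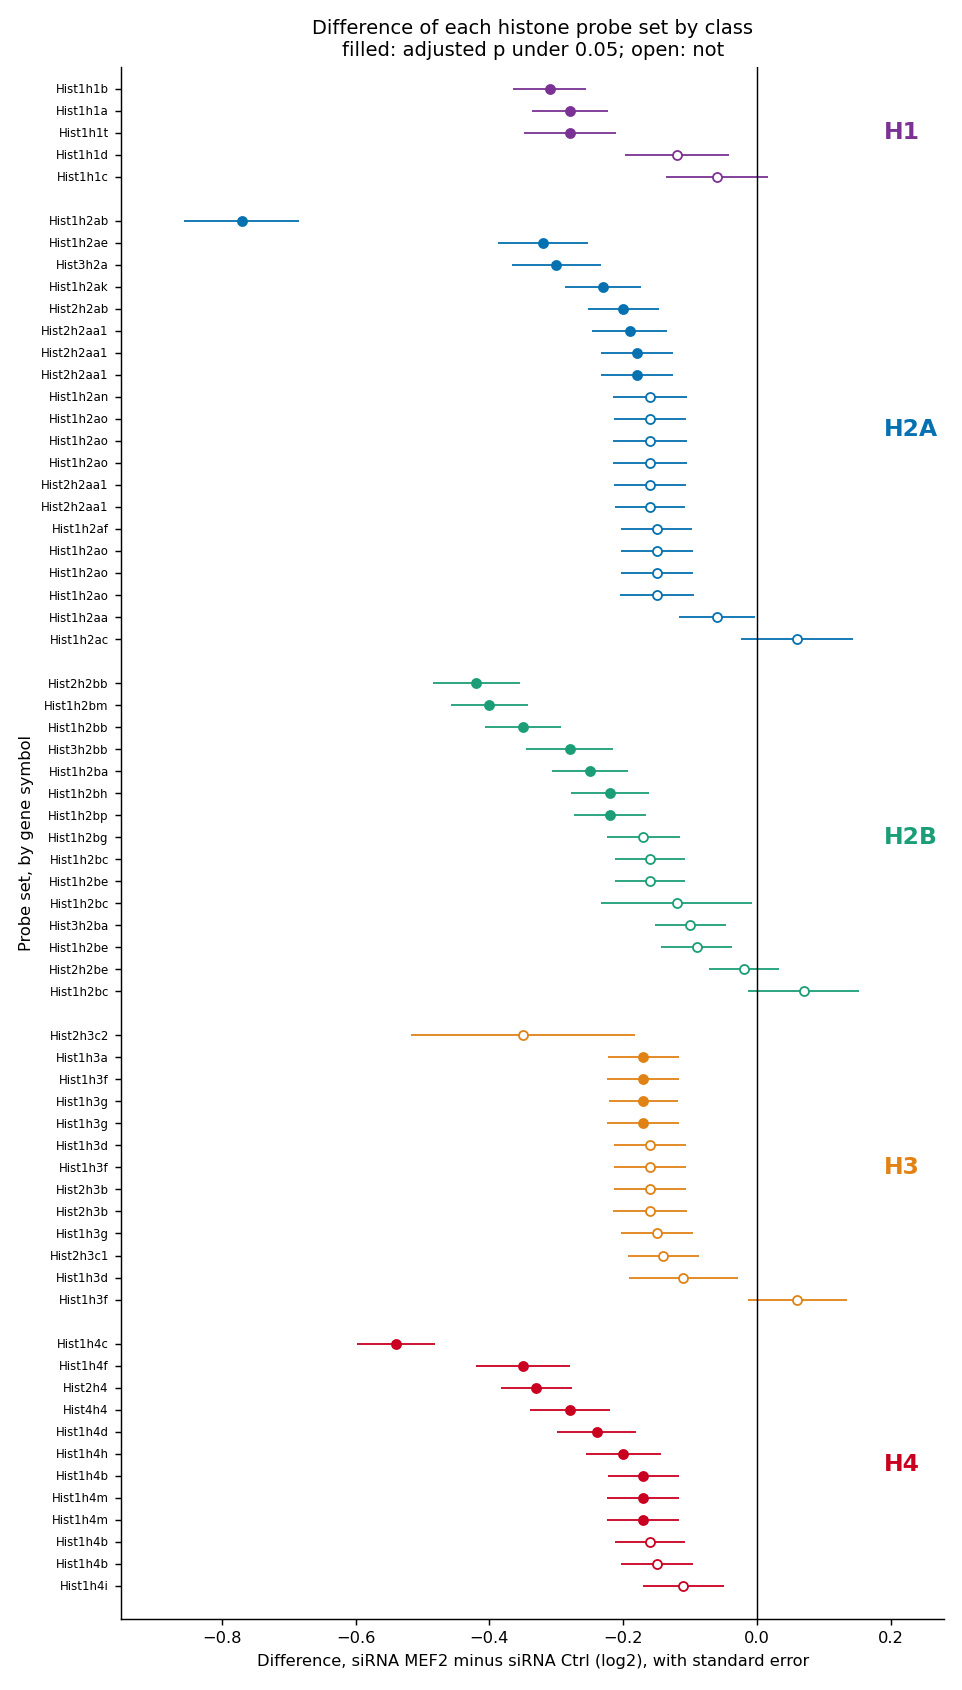
Difference of each of the 65 histone probe sets, siRNA MEF2 minus siRNA Ctrl on the log2 scale, with the standard error from limma, in rows by class and within a class by size. Filled points, 31 of them, had an adjusted p under 0.05; 62 of the 65 points lie left of 0, and Hist1h2ab at -0.77 lies farthest.

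Among the linker histones, the somatic H1 genes Hist1h1b and Hist1h1a fell and Hist1h1c did not pass the test. Hist1h1b, which encodes H1.5, had 11.92, 11.85 and 11.90 on the siRNA MEF2 arrays, against 12.19, 12.17 and 12.24 on the siRNA Ctrl arrays. Hist1h1a, which encodes H1.1, had 12.00, 12.02 and 11.92 against 12.23, 12.24 and 12.32. In both genes the arrays of the groups were fully apart, and the differences were -0.31 ± 0.055 (SE; limma, adjusted p = 0.00341, 1.24-fold) and -0.28 ± 0.057 (SE; limma, adjusted p = 0.00721, 1.22-fold). Hist1h1c, which encodes H1.2, had 11.24, 11.17 and 10.96 in siRNA MEF2 and 11.26, 11.15 and 11.13 in siRNA Ctrl, and only the lowest siRNA MEF2 array lay outside the range of the controls. Its difference was -0.06 ± 0.076 (SE; limma, adjusted p = 0.602).

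The other H1 probe sets were dim, below a mean level of 8 and so close to the negative controls. Hist1h1t, the linker histone of spermatocytes, averaged 7.59 ± 0.08 in siRNA MEF2 and 7.87 ± 0.11 in siRNA Ctrl (SD, n = 3 each; limma, adjusted p = 0.0172). Hist1h1d, which encodes H1.3, averaged 7.04 ± 0.15 and 7.16 ± 0.08 (SD, n = 3 each; limma, adjusted p = 0.266), and its arrays overlapped. No fold change is given for members with a group mean under 8.

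Among H2A genes, Hist1h2ab fell more than any other histone member. Its levels were 9.24, 9.26 and 8.96 on the siRNA MEF2 arrays, against 9.88, 10.05 and 9.84 on the siRNA Ctrl arrays. Every siRNA MEF2 array was more than the spread of either group below every control. The difference was -0.77 ± 0.086 (SE; limma, adjusted p = 0.000277), or 1.7-fold lower.

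Hist3h2a, the H2A gene of the Hist3 cluster, had 12.22, 11.99 and 12.04 in siRNA MEF2 and 12.37, 12.37 and 12.41 in siRNA Ctrl, without overlap, a difference of -0.30 ± 0.066 (SE; limma, adjusted p = 0.011). Hist1h2ak, at 12.92, 12.92 and 12.85 against 13.05, 13.17 and 13.15, fell by 0.23 on the log2 scale (limma, adjusted p = 0.0188), also without overlap. Hist1h2ae was dim, at 4.90 ± 0.11 against 5.22 ± 0.06 (SD, n = 3 each; limma, adjusted p = 0.00866), which is below the negative controls. Hist1h2aa, an H2A of the testis, and Hist1h2ac, also dim, did not pass the test, at -0.06 (limma, adjusted p = 0.453) and 0.06 (limma, adjusted p = 0.598).

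The bright H2A probe sets, those with a mean level of 13 or more, moved as one block. The 6 probe sets of Hist1h2ao had differences of -0.15 or -0.16, and none was called, with limma adjusted p of 0.0626 to 0.078. Hist1h2af and Hist1h2an stood at -0.15 and -0.16 (limma, adjusted p = 0.0709 and 0.059). The 5 probe sets of Hist2h2aa1 had differences of -0.16 to -0.19, of which 3 were called, and Hist2h2ab stood at -0.20 (limma, adjusted p = 0.0259). On all 15 bright H2A probe sets the siRNA MEF2 arrays lay below the siRNA Ctrl arrays.

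Among H2B genes, the 3 with the strongest falls were Hist2h2bb, Hist1h2bm and Hist1h2bb. Hist2h2bb had 10.46, 10.30 and 10.39 on the siRNA MEF2 arrays, against 10.83, 10.71 and 10.87 on the siRNA Ctrl arrays, a difference of -0.42 ± 0.065 (SE; limma, adjusted p = 0.00156, 1.34-fold). Hist1h2bm had 12.17, 12.15 and 12.04 against 12.53, 12.53 and 12.51, a difference of -0.40 ± 0.057 (SE; limma, adjusted p = 0.00105, 1.32-fold). Hist1h2bb had 11.64, 11.74 and 11.61 against 11.99, 12.02 and 12.04, a difference of -0.35 ± 0.057 (SE; limma, adjusted p = 0.00207, 1.28-fold). In all 3 genes the groups were apart by more than the spread within either. All of them carry the octamer in their promoters, as do Hist1h2ba, called lower, and Hist1h2bg, which missed the threshold (limma, adjusted p = 0.0537). The H2B genes Hist1h2bh and Hist1h2bp lack it and were called lower, and the H2A genes Hist1h2aa and Hist1h2ac carry it and were not called. Of the 10 genes with the octamer 7 had a probe set called lower, beside 18 of 32 with CCAAT, 13 of 21 with TATAAA and 8 of 9 with GGTCCG. Counted by the brightest probe set of each gene, 25 of all 44 were called lower. A link between the octamer and the falls was not tested.

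Other H2B probe sets fell less or did not pass the test. Hist1h2ba, the H2B of the testis, averaged 8.12 ± 0.02 in siRNA MEF2 and 8.37 ± 0.07 in siRNA Ctrl (SD, n = 3 each; limma, adjusted p = 0.0134). Hist3h2bb, a transcribed pseudogene in RefSeq, was lower, at -0.28 (limma, adjusted p = 0.0138) and Hist1h2bh at -0.22 (limma, adjusted p = 0.0226). Hist2h2be, known in mouse olfactory neurons as an H2B made outside replication, was dim, with 7.56, 7.59 and 7.56 in siRNA MEF2 and 7.57, 7.59 and 7.60 in siRNA Ctrl. Its groups overlapped and its difference was -0.02 ± 0.052 (SE; limma, adjusted p = 0.804).

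The probe sets of Hist1h2bc disagreed. One had 12.85, 12.56 and 12.54 in siRNA MEF2 and 12.67, 12.55 and 12.52 in siRNA Ctrl, which overlapped, with a difference of 0.07 ± 0.083 (SE; limma, adjusted p = 0.576). Without the first siRNA MEF2 array that difference was -0.03. A bright one had 13.36, 13.36 and 13.33 against 13.53, 13.50 and 13.50, fully apart, a difference of -0.16 ± 0.052 (SE; limma, adjusted p = 0.0505). The third was dim, at 5.30 ± 0.25 against 5.42 ± 0.15 (SD, n = 3 each; limma, adjusted p = 0.472). The first of these, with Hist1h1c, was 1 of the 2 members between levels 10 and 13 that were not called.

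H3 was read almost wholly by bright probe sets that gave much the same difference. On 10 of its 13 probe sets the level was 13.71 or more, and their differences ran from -0.14 to -0.17. Hist1h3a had 13.97, 13.96 and 13.91 on the siRNA MEF2 arrays, against 14.08, 14.12 and 14.13 on the siRNA Ctrl arrays, a difference of -0.17 ± 0.053 (SE; limma, adjusted p = 0.0496). Its arrays did not overlap. The 3 other called probe sets, 1 of Hist1h3f and 2 of Hist1h3g, had the same difference, with limma adjusted p of 0.0442 to 0.0457.

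The H3 probe sets not called by the test sat just beside them. The 2 probe sets of Hist2h3b, the brightest of the class among them, stood at -0.16 (limma, adjusted p = 0.053 and 0.0629), and Hist2h3c1 at -0.14 (limma, adjusted p = 0.0797). The 3 H3 probe sets under level 13 overlapped between the groups. Hist2h3c2, at 7.81, 7.09 and 7.67 in siRNA MEF2 and 8.11, 7.58 and 7.92 in siRNA Ctrl, scattered most, with a difference of -0.35 ± 0.167 (SE; limma, adjusted p = 0.157).

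In H4, 9 of 12 probe sets fell, among them all 4 with a level from 10 to 13. Hist1h4c had 10.23, 10.18 and 10.25 on the siRNA MEF2 arrays, against 10.69, 10.75 and 10.84 on the siRNA Ctrl arrays, a difference of -0.54 ± 0.058 (SE; limma, adjusted p = 0.000227, 1.45-fold). Hist2h4 had 12.54, 12.59 and 12.51 against 12.88, 12.88 and 12.87, a difference of -0.33 ± 0.053 (SE; limma, adjusted p = 0.00206, 1.26-fold). Hist1h4f had 11.84, 11.83 and 11.82 against 12.20, 12.02 and 12.30, a difference of -0.35 ± 0.07 (SE; limma, adjusted p = 0.00729, 1.27-fold). In each of these the groups did not overlap, and in Hist1h4f the spread lay in the controls. All encode the same H4 protein from separate loci.

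Hist4h4, the lone gene of its cluster, averaged 10.68 ± 0.01 in siRNA MEF2 and 10.97 ± 0.09 in siRNA Ctrl (SD, n = 3 each; limma, adjusted p = 0.00897). Hist1h4d and Hist1h4h were also called, at -0.24 (limma, adjusted p = 0.0183) and -0.20 (limma, adjusted p = 0.0334). Hist1h4i stood at -0.11 and overlapped between the groups (limma, adjusted p = 0.217). The 3 probe sets of Hist1h4b had differences of -0.15 to -0.17, with 1 called, and the 2 of Hist1h4m stood at -0.17 with identical values on every array (limma, adjusted p = 0.0486).

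**Figure D2:**
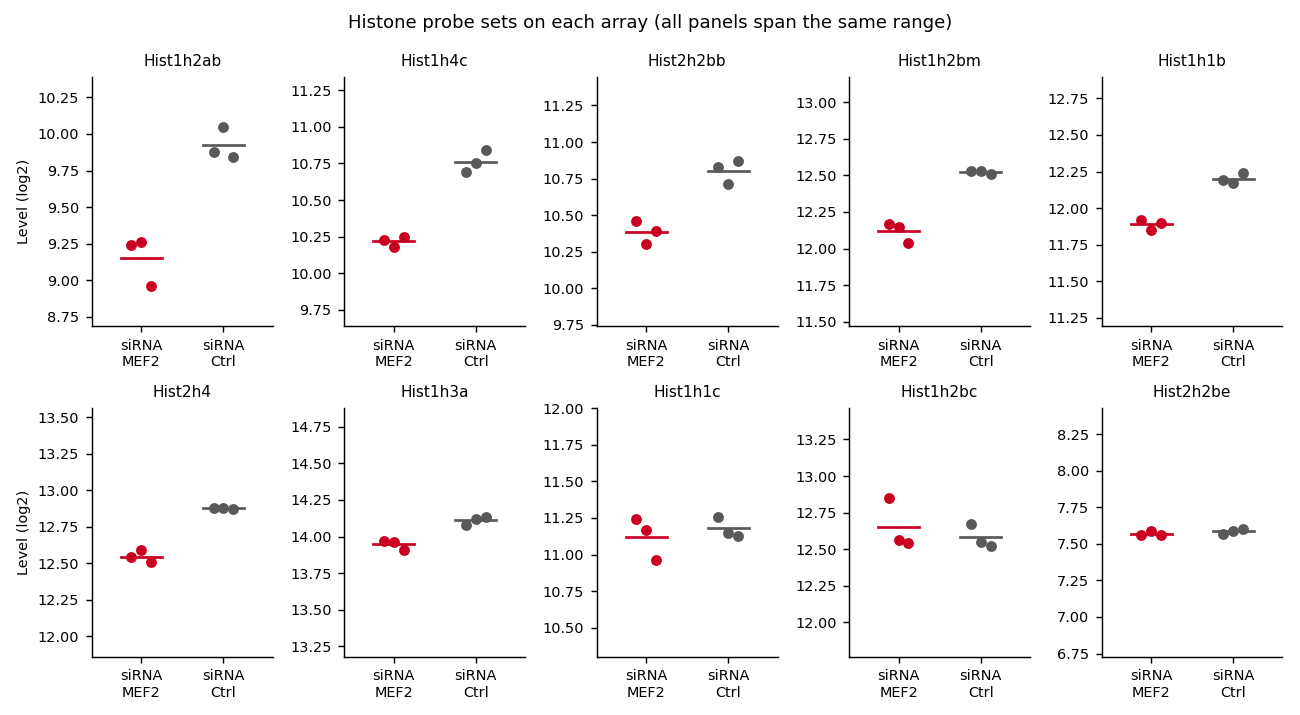
Level (log2) of 10 histone probe sets on each array, siRNA MEF2 left and siRNA Ctrl right, with a bar at each group's mean; all panels span the same range. The arrays of the groups are apart from Hist1h2ab to Hist1h3a, and overlap in Hist1h1c, in the Hist1h2bc probe set at level 12.62 and in Hist2h2be.

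Many bright probe sets of a class gave nearly the same values, and whether they share probes was not tested. Of the 44 transcript accessions behind the members, 10 stood on several probe sets, 31 in all, with Hist1h2ao on 6 and Hist2h2aa1 on 5, and 34 on 1. The deposited cross-hybridisation flag was set on 0 of the 65 and on 19 probe sets of the whole table. Among bright pairs of a class, 31 of 45 in H3, 8 of 15 in H4 and 25 of 105 in H2A stayed within 0.1 of each other on every array. Of these, 8 pairs stayed within 0.02, among them Hist1h3f with Hist1h3g and Hist1h2af with Hist1h2ao, which are different genes in the annotation. Of the pairs with a probe set below level 13, 0 came within 0.1.

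Members with an accession on 1 probe set and those with a shared accession differed in the size of the fall. The 34 probe sets whose accession stood on 1 probe set had 22 called lower and a median difference of -0.23. Among them were Hist1h2af and Hist1h3a, which stayed within 0.02 of a probe set of another gene on every array. The 31 with a shared accession had 9 called lower and a median of -0.16. Signal separated them as well, since the median level was 10.71 for the first set and 13.86 for the second. Whether shared reading or signal strength makes the difference smaller was not tested.

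By signal, the 33 bright members formed a tight band and the rest spread. All 33 had the siRNA MEF2 arrays below the siRNA Ctrl arrays, against 17.1% of the 287 other bright probe sets. Their differences ran from -0.14 to -0.24 with a median of -0.16, where the other bright probe sets had a median of 0.00. Of the 33 bright members 13 were called lower, against 4.53% of the other bright ones. Histones made up 10.3% of the 320 named probe sets at level 13 or more, and 25 of the 100 brightest. These ranks describe signal on the array and not amounts of RNA.

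The number of bright members called changed with the setting. The number called ran from 0 of 33, without the second or without the third siRNA Ctrl array, to 33 of 33, with a variance trend and robust estimation or after median centring. It was 7 without the first siRNA MEF2 array, 2 without the second or the third or without the first siRNA Ctrl array, 3 after quantile normalization and 4 after cyclic loess. Their median difference, -0.16 over all arrays, was -0.15 to -0.18 in the 6 fits that left out an array, -0.09 after quantile normalization and -0.21 after median centring, which moves all probe sets of an array alike.

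Between levels 8 and 13 the median difference was further below 0 than among the bright members. Of the 23 members from 8 to 13, 15 were called lower with a median of -0.28, against 21.2% called lower and a median of -0.05 among other probe sets of that range. From 10 to 13 the members had 11 of 13 called lower and a median of -0.31, against 22.2% and -0.06 among 5143 others. Of the 9 dim members 3 were called lower with a median of -0.12, against 1.64% of other dim probe sets, whose median was 0.08 and of which 10.2% were called higher. The dim members had levels of 4.95 to 7.73, where the negative controls had a median of 7.34.

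**Figure D3:**
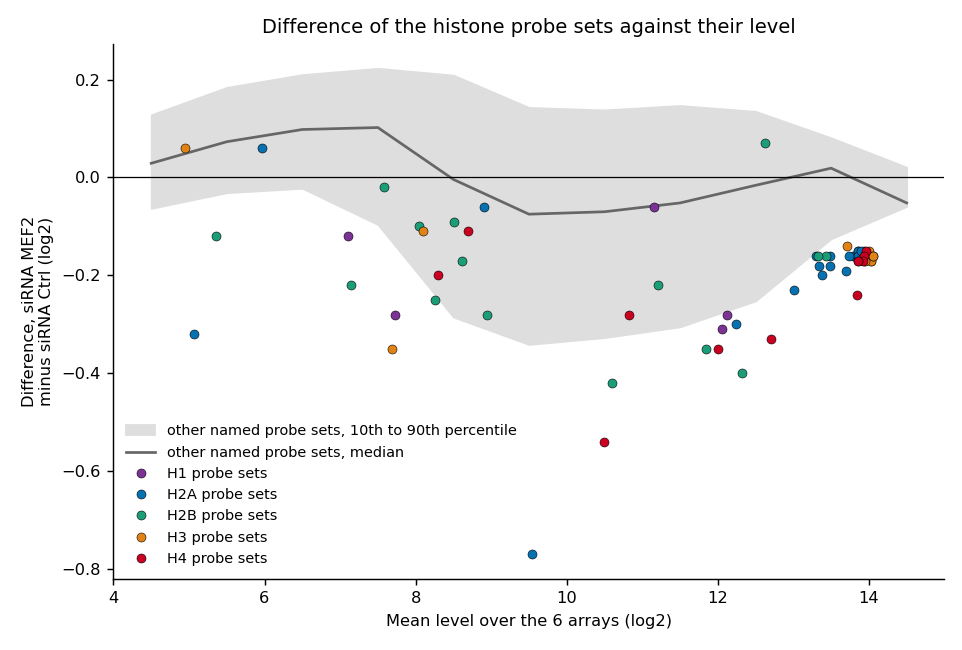
Difference (log2, siRNA MEF2 minus siRNA Ctrl) against the mean level over the 6 arrays for the 65 histone probe sets, coloured by class, over the median and the 10th to 90th percentile of the other named probe sets in steps of 1 log2 unit. The bright members sit in a band around -0.16 under the median of the others, and the largest falls, Hist1h2ab and Hist1h4c, sit near levels 9.54 and 10.49.

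Some calls did not depend on the setting. Of the 31 members called, 10 were called under every alternative they entered, namely Hist1h1a, Hist1h1b, Hist1h2ab, Hist1h2ae, Hist1h2bb, Hist1h2bm, Hist2h2bb, Hist1h4c, Hist1h4f and Hist2h4. The others lost the call under at least 1. Over the 14 alternatives the difference of Hist1h2ab ran from -0.82 to -0.67 and that of Hist1h4c from -0.58 to -0.45. The count of members called lower was 31 and fell to 14 without the second siRNA Ctrl array, 15 without the third, 18 without the first, 15 without the second siRNA MEF2 array and 18 without the third.

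Genes that make and process histone mRNA were read next, from a list of 38. Of these 8 were called lower and 1 higher, with a median of -0.08. That is 21.1% lower, against 11.0% of all named probe sets but 21.2% of the other probe sets between levels 8 and 13, where most of this list lies, so the share as a whole does not stand out from that background. Slbp, whose protein binds the histone stem-loop and stays with the mRNA through processing and translation, had 9.84, 9.89 and 9.99 on the siRNA MEF2 arrays, against 10.55, 10.58 and 10.74 on the siRNA Ctrl arrays. The groups were far apart, with a difference of -0.72 ± 0.067 (SE; limma, adjusted p = 9.33e-05, 1.65-fold). Eri1, the exonuclease that trims histone mRNA ends, had 10.75, 10.80 and 10.68 against 11.16, 11.19 and 11.26, a difference of -0.46 ± 0.058 (SE; limma, adjusted p = 0.000515).

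Npat, the S-phase coactivator of histone genes, had 9.81, 9.75 and 9.77 in siRNA MEF2 and 10.18, 10.12 and 10.06 in siRNA Ctrl, a difference of -0.35 ± 0.057 (SE; limma, adjusted p = 0.00223). The subunits of NF-Y went apart, with Nfyb at -0.50 (limma, adjusted p = 0.000441) and Nfya at 0.19 (limma, adjusted p = 0.0399). Bard1, listed for its part in 3′ end formation, was lower, at -0.53 (limma, adjusted p = 0.000588). The other members of the list called lower were Ncbp2 (-0.28), of the cap-binding complex, Papd5 (-0.17), a nucleotidyltransferase acting on RNA tails, and Fbxw7 (-0.32), which targets cyclin E. Slbp, Eri1, Npat, Nfyb, Bard1 and Fbxw7 were called lower under all 14 alternatives, Ncbp2 under 11 and Papd5 under 5, and Nfya was called higher under 8.

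Of the genes named for their part at the histone locus or in U7-dependent processing, these were not called. Casp8ap2 (FLASH) stood at -0.02 (limma, adjusted p = 0.87), Hinfp at 0.02 (limma, adjusted p = 0.852) and Lsm11 at -0.03 (limma, adjusted p = 0.825). Zfp473, a U7-associated protein, was dim at 7.5 ± 0.06 in siRNA MEF2 and 7.39 ± 0.06 in siRNA Ctrl (SD, n = 3 each; limma, adjusted p = 0.192). Lsm10, at 9.85, 9.82 and 9.65 against 9.86, 10.06 and 9.99, did not overlap but missed the threshold, with -0.20 ± 0.072 (SE; limma, adjusted p = 0.0756).

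**Figure D4:**
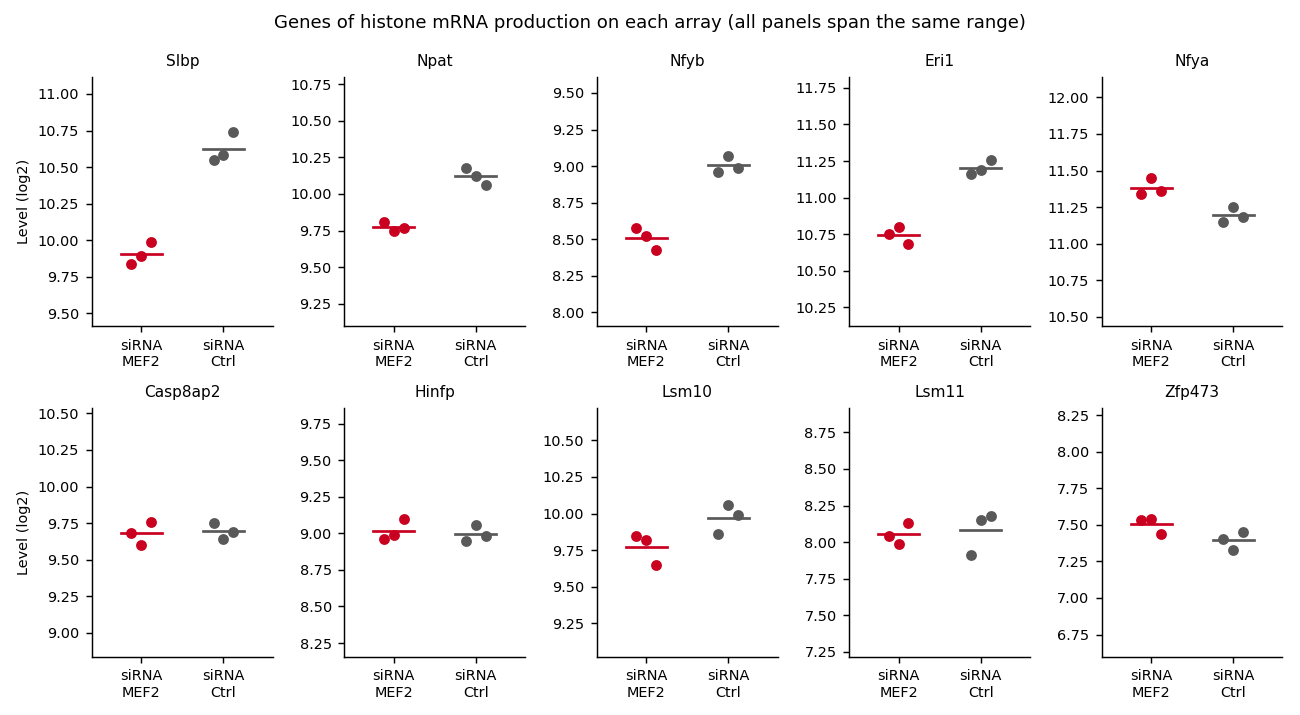
Level (log2) of 10 genes of histone mRNA production on each array, siRNA MEF2 left and siRNA Ctrl right, with a bar at each group's mean; all panels span the same range. Slbp, Npat, Nfyb and Eri1 lie lower in siRNA MEF2 and Nfya higher, while Casp8ap2, Hinfp, Lsm11 and Zfp473 overlap.

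Regulators of entry into S phase fell in 17 of 28 genes, 60.7%, against 11.0% of all named probe sets and 21.2% of other probe sets between levels 8 and 13. None was called higher, against 8.44% of all named probe sets, and the median was -0.24. Ccne1, cyclin E1, had 10.68, 10.62 and 10.57 on the siRNA MEF2 arrays, against 11.11, 11.15 and 11.20 on the siRNA Ctrl arrays (-0.53; limma, adjusted p = 0.000213). Ccne2 stood at -0.48 (limma, adjusted p = 0.000353), Ccna2 at -0.46 (limma, adjusted p = 0.00151), Cdk2, their kinase, at -0.26 (limma, adjusted p = 0.00902) and E2f1 at -0.55 (limma, adjusted p = 0.000773). The 4 members with the smallest p were Cdkn1a, the p21 inhibitor of CDKs (-1.41), E2f2 (-0.83), Rb1 (-0.76) and Ccne1. Cdkn1a and Rb1, which hold back entry into S phase, were thus lower beside its activators. The count of 17 was 13 after quantile normalization and without the third siRNA Ctrl array, and 20 after median centring. Without the first siRNA Ctrl array 1 gene of the list was called higher. Each gene named here was called lower under all 14 alternatives.

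DNA replication genes gave 38 of 54 called lower, 70.4%, against 11.0% of all named probe sets and 21.2% of other probe sets between levels 8 and 13. Of the 54, 1 was called higher, and the median was -0.23. Among those with the smallest p were Dbf4, the partner of the CDC7 kinase (-0.53), Clspn, of the replication checkpoint (-0.43), and Dut, the dUTPase (-0.42), with limma adjusted p of 0.000268 to 0.000935. The siRNA MEF2 arrays lay below the siRNA Ctrl arrays in 43 of the 54. The count of 38 was 19 without the second or the third siRNA Ctrl array, without the second siRNA MEF2 array and after quantile normalization, and 22 after cyclic loess, while the median stayed at -0.17 or below. The share of cells in S phase was not measured, and its part in the histone result was not tested.

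Histone chaperones, which carry new histones to chromatin, gave 11 of 36 called lower and 0 higher, with a median of -0.09. The share of 30.6% lower stands beside 11.0% of all named probe sets and 21.2% of other probe sets between levels 8 and 13. Cabin1, a subunit of the HIRA complex, stood at 0.18 (limma, adjusted p = 0.051) and was called higher under 8 of the 14 alternatives. Asf1b, the H3-H4 chaperone of dividing cells, had 11.78, 11.66 and 11.59 in siRNA MEF2 and 12.17, 12.15 and 12.22 in siRNA Ctrl (-0.50; limma, adjusted p = 0.000478). Its paralogue Asf1a stood at -0.03 (limma, adjusted p = 0.729). Within CAF-1, which deposits H3-H4 at forks, Chaf1b was lower, at -0.39 (limma, adjusted p = 0.00102) and Chaf1a stood at -0.08 (limma, adjusted p = 0.291). Anp32e, which removes H2A.Z, was lower, at -0.68 (limma, adjusted p = 0.000441) and Ubn1, of the HIRA complex, at -0.38 (limma, adjusted p = 0.00148). The count of 11 was 6 without the second siRNA Ctrl array and 7 without the second siRNA MEF2 array, after quantile normalization and after cyclic loess; the 4 genes given as lower were called under all 14 alternatives.

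Histone genes expressed outside S phase went apart by signal. The 9 with a difference below 0 all had mean levels above 8. The 8 with a difference above 0 all lay under 8, where other dim probe sets had a median of 0.08. Of 17 measured, 6 were called lower and 3 higher, with a median of -0.03. The 6 make 35.3%, against 11.0% of all named probe sets. All 6 were among the 9 genes between levels 8 and 13, where 21.2% of other probe sets were called lower. Among other dim probe sets 1.64% were called lower. Lower were H2afx (-0.30; limma, adjusted p = 0.0117), whose product marks DNA breaks, the linker histone H1f0 (-0.27; limma, adjusted p = 0.0159), H2afv and H2afz, which encode forms of H2A.Z (-0.24 and -0.18; limma, adjusted p = 0.0472 and 0.0483), H3f3b, 1 of the 2 genes for H3.3 (-0.18; limma, adjusted p = 0.0484), and Cenpa, the H3 of centromeres (-0.21; limma, adjusted p = 0.0356).

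H3f3a, the other H3.3 gene, stood at -0.07 (limma, adjusted p = 0.406), H2afj at -0.16 (limma, adjusted p = 0.0914) and H2afy, which encodes macroH2A1, at -0.03 (limma, adjusted p = 0.782). The 3 called higher, H1fx (0.22), H1fnt (0.20) and H2afb1 (0.24), were all under a mean level of 8, with limma adjusted p of 0.0187 to 0.0428. At such levels 10.2% of other probe sets were called higher. Below 8 too was Hils1 at 0.20 (limma, adjusted p = 0.0553). H1foo (0.10), H2afy2 (0.03), H2afy3 (0.12) and 1700014N06Rik (0.05) were dim and not called. These calls changed with the arrays used, with 0 lower without the second array of either group, 1 without the first siRNA Ctrl array, and 2 without the third array of either group, after quantile normalization or after cyclic loess. The count called higher was 0 after quantile normalization, after cyclic loess and without the second siRNA Ctrl array, and 1 after median centring, without the first siRNA Ctrl array and without the second siRNA MEF2 array.

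**Figure D5:**
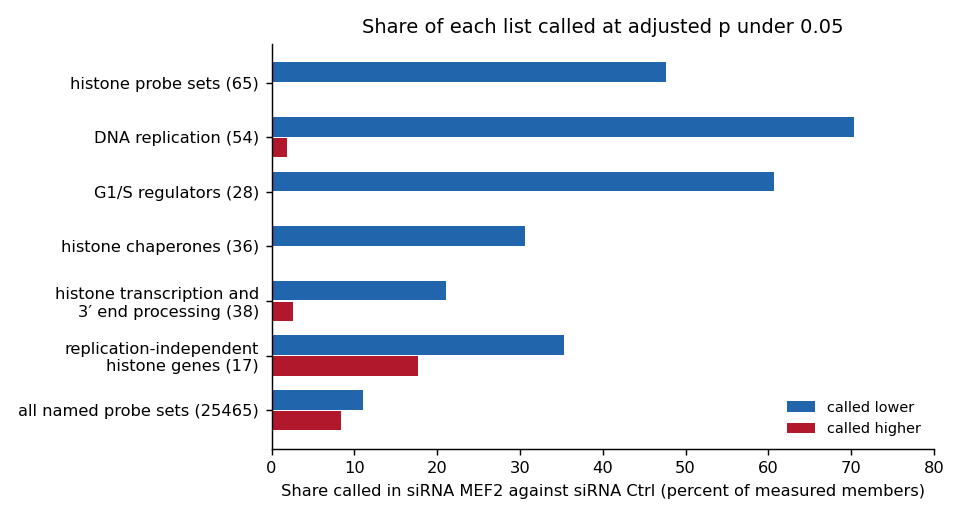
Share of the measured members of each list called lower or called higher in siRNA MEF2 against siRNA Ctrl (percent, limma adjusted p under 0.05), with the number measured in brackets and all named probe sets at the foot. The histone bar stands at 47.7% lower with none higher, between DNA replication at 70.4% lower and all named probe sets at 11.0%. The histone bar and that of all named probe sets count probe sets, and the other lists 1 probe set per gene. With 1 probe set per gene symbol, 25 of 44 histone genes were called lower.

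Markers of other testis cells were mostly not called, but some were. Over all named probe sets 11.0% were called lower and 8.44% higher. Germ cell markers, 8 genes, had 0 called lower and 2 higher, with median levels of 5.90 to 5.97 on the siRNA MEF2 arrays and 5.91 to 6.0 on the siRNA Ctrl arrays, below the negative controls. Of the 2, Ddx4 had a mean level of 8.18 and a difference of 0.39 (limma, adjusted p = 0.0101). It was called higher under all 14 alternatives. Sertoli cell markers gave 0 lower and 0 higher of 6, with medians of 7.57 to 7.71 and 7.47 to 7.51. Macrophage markers gave 1 lower (Cd68, -0.54) and 1 higher of 6, and endothelial and fibroblast markers 1 lower (Cdh5, -0.42) and 3 higher of 8. Cdh5 had a mean level of 12.05, as bright as several Leydig cell markers. Leydig cell markers gave 3 lower (Star, Hsd3b1 and Hsd3b6) and 3 higher of 7. The testis-specific histones Hist1h1t, Hist1h2aa and Hist1h2ba averaged 7.73, 8.90 and 8.25, and shared reading with other histone genes was not tested for them.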

How the data were processed

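Gene-level log2 values of 35557 probe sets on 6 arrays were used as deposited. The authors normalized them with RMA in Partek, per the submitters' processing notes; no versions are stated. The values are relative within the experiment, and array medians over the named probe sets differed by less than 0.1. The series' value table held identical values.

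Probe sets with 1 gene symbol, controls left out, entered the test (25465). Differences were tested with limma 3.58.1 in R 4.3.3 (lmFit and eBayes, two-sided, without a block or a filter, all 6 arrays), adjusted by Benjamini-Hochberg over all of them, and called at an adjusted p under 0.05. The test was checked on simulated data, with 67 probe sets changed by 0.3, 67 by 0.6 and 66 by 1 on the log2 scale. It recovered 58.2% of changes of 0.3 and 100% of those of 0.6 and 1. Far more probe sets were called in the real data, 2800 lower and 2148 higher. The adjusted p then asks less of each probe set, so these shares do not give the power of the test here. Smaller changes, such as the median histone difference of -0.17, were not simulated. The number of arrays limits the precision.

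Members, lists and limits were chosen with earlier results of these data known. Named were, per class, the brightest probe set, up to 4 called with the smallest p, testis-specific members, all probe sets of symbols with several, and per list up to 4 with the smallest p beside a set of regulators and every replication-independent histone gene measured; others named (such as Ncbp2, Papd5, Fbxw7, Cabin1 and Asf1a) were chosen after their values were seen. 1 gene that the rule names is not reported here. Where a list gene had several probe sets the brightest stood for it. The levels 8 and 13 and the limit on fold changes were set after the values were seen. Symbols were matched to RefSeq (GRCm38.p6) for all 44 genes. The matrix alternative, other scalings, filters, weights, a replicate block and each array left out were tried.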

Additional observations from a re-analysis of the deposited data

How the results depend on the processing

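In all 14 alternatives run no histone probe set was called higher, and the median difference of each class stayed below 0. The count called lower, 31, was 47 over probe sets above the negative control median, 52 after median centring, 51 with variance trend and robust estimation, 50 with array weights and 18 after quantile normalization, and 14 to 25 with 1 array left out. The calls of bright members make up most of that range. Named probe sets called higher numbered 2148, and 987 after median centring, 1306 after cyclic loess and 875 to 2212 with 1 array left out; those called lower, 2800, were 1677 to 2854 with 1 array left out. The class medians moved by more than the spread between arrays for H2A (-0.20) and H3 (-0.21) after median centring and for H3 (-0.088) and H4 (-0.12) after quantile normalization; with 1 array left out they were -0.29 to -0.22 for H1, -0.18 to -0.14 for H2A, -0.22 to -0.15 for H2B, -0.18 to -0.14 for H3 and -0.20 to -0.16 for H4. Median centring moved every probe set alike, the median of all named ones from 0.04 to -0.01, and so all 5 class medians; the cause of the other shifts was not tested.

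Samples of the same number correlated at 0.085, 0.080 and 0.077 over the deviations from their group means, under the 0.1 asked for pairing. Pairs of unlike number stood at -0.060 to -0.013. Deviations within a group cancel out, so positive values for like numbers push those for unlike numbers down. The contrast between them is thus no further evidence. The small positive values are a hint from the data and not from the design. With a replicate block 24 histone probe sets were called lower, and 2978 lower and 2460 higher of all.

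Over 93 single probe sets and the 14 alternatives, the call was lost 144 times and gained 70 times without a change of direction. Single probe sets near 0 changed sign, and none of them was called under these settings. Median centring gave Hinfp -0.0267 and H2afy2 -0.0117. Quantile normalization gave Casp8ap2 0.0832, H2afy2 -0.054, 1700014N06Rik -0.0298 and H2afy 0.0558. Cyclic loess gave Casp8ap2 0.0525, H2afy2 -0.0584, 1700014N06Rik -0.0375, H2afy 0.0427 and H1foo -0.00577. With 1 array left out, the Hist1h2bc probe set at level 12.62 ran from -0.0313 to 0.125 and its dim one from -0.224 to 0.021, the dim Hist1h3f from -0.0118 to 0.105, Hinfp from -0.0247 to 0.0495, Lsm11 from -0.11 to 0.024, Casp8ap2 from -0.0554 to 0.0244, H2afy from -0.0801 to 0.0478, H2afy2 from -0.0619 to 0.14 and 1700014N06Rik from -0.0468 to 0.153. The deposited value table was identical and gave no other value. Signal near the negative controls limits what the dim members can show.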

Other observations

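3 probe sets described as histone-like but without a histone symbol, and so outside the members, were not called. Gm11275 averaged 7.49 ± 0.13 in siRNA MEF2 and 7.59 ± 0.22 in siRNA Ctrl (SD, n = 3 each; limma, adjusted p = 0.503), Gm9713 8.39 ± 0.23 and 8.48 ± 0.03 (SD, n = 3 each; limma, adjusted p = 0.501), and Gm7194 4.93 ± 0.21 and 5.06 ± 0.13 (SD, n = 3 each; limma, adjusted p = 0.345).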
